A study of Mus musculus with 5 samples.

Results

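Radial precursors of the E15.5 mouse cortex were divided by their transcripts of 8 cell-cycle genes. Cells with several of these transcripts were set against cells that held none of them. Radial precursors were taken from the authors' E15.5 table of cortical cells by a rule on unique molecular identifiers (UMIs, each a counted RNA molecule). A cell had at least 1000 UMIs, at least 3 UMIs in sum of Pax6, Sox2, Hes1, Hes5, Slc1a3, Mfge8 and Ttyh1, no UMI of Eomes, and at most 1 UMI in sum of Neurod2, Neurod6, Gad1 and Gad2. Of 2955 cells, 2859 had the depth, 345 of these also had the radial transcripts, 227 also lacked Eomes and 156 passed the limit on neuronal transcripts. A radial precursor was called cycling at 3 or more UMIs in sum of 8 cycle genes (Mki67, Top2a, Cenpf, Ccnb1, Ube2c, Cdk1, Rrm2 and Pcna) and cycle-low at 0. This gave 84 cycling and 20 cycle-low cells, 104 of the 156 radial precursors and of the 6390 cells in the cortical tables of all ages. The 52 radial precursors with 1 or 2 cycle UMIs were in neither group.

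Every embryo was wild type, of the CD1 strain, with no transgene or treatment, and the dissected cortex was dissociated for Drop-seq, in which a droplet joins a cell to a bead whose barcode labels its RNA. The ages were E11.5 and E13.5, then E15.5, and last E17.5. Cells of every age but E11.5 had been sorted for viability, and the sources used here do not say how many embryos were pooled. The labels list 2 batches of E15.5, but their cells share a table without a batch name. E15.5 was therefore 1 library, no test over samples could be made within it, and its values carry intervals for counting error only. Tests were made on the same rule in the 3 other ages. The rule was set on E15.5, but it was chosen with earlier results of these data known.

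Radial precursors, also called radial glia, line the ventricle and divide to give intermediate progenitors, neurons and later glia. Adult neural stem cells of the forebrain descend from them, and some embryonic precursors are known to slow or leave the cycle before birth. A cell that has just left mitosis, a cell committed to becoming a neuron and a precursor entering quiescence can all hold few cycle transcripts. In a dividing cell the transcripts of DNA synthesis, such as Rrm2 (a subunit of ribonucleotide reductase) and Pcna (the replication clamp), rise before those of mitosis, such as Cdk1 (the mitotic kinase), Ccnb1 (its cyclin), Top2a (which untangles DNA), Cenpf (a kinetochore protein), Ube2c (which helps degrade cyclins) and Mki67 (which coats mitotic chromosomes).

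The promoters of several genes that set the groups hold the core of the cell cycle genes homology region (CHR), an element known from genes expressed late in the cycle. The core searched was TTTGAA on either strand, within RefSeq promoters of GRCm38.p6 that run from 250 bases before to 50 bases after the start of transcription. It was present in 5 of the 8 cycle genes of the rule (Mki67, Top2a, Cenpf, Ube2c and Cdk1) and in 20.2% of the 27025 genes with a promoter in the table. Neither Rrm2, Pcna nor Ccnb1 held it in this window. A pair of E2F-type motifs, TTTGGCGC and TTTCCCGC, on either strand, was in none of the 8 promoters and in 1.80% of all. Shown here, for the 4 genes that hold the core before the start, are the 250 bases up to the start at chr10:69352913-69353162 (minus strand), chr11:99024190-99024439 (minus), chr2:164769679-164769928 (plus) and chr7:135716380-135716629 (minus), read 5′ to 3′ along the gene, with the core in capitals. TTCAAA is the same core on the other strand.
Cdk1: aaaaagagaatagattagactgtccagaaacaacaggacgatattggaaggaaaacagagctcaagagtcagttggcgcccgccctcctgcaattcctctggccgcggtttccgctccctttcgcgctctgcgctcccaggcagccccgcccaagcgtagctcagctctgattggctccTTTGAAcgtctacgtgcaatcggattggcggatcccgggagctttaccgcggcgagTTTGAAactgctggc
Top2a: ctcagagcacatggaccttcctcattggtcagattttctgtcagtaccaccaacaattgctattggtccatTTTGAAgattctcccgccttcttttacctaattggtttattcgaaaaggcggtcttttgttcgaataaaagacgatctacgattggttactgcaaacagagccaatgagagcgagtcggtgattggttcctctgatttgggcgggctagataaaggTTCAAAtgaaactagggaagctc
Ube2c: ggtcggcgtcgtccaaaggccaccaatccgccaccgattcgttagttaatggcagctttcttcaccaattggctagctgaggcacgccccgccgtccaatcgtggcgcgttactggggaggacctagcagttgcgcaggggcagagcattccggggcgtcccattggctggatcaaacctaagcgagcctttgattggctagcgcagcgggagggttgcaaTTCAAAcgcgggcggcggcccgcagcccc
Mki67: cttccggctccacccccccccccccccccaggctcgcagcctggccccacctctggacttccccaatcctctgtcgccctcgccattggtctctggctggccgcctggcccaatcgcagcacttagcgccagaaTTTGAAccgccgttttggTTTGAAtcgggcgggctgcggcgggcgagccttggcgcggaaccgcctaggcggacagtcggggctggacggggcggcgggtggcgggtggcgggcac
Cdk1 holds the core 15 and 71 bases before the start, Top2a 23 and 179, Ube2c 29 and Mki67 98 and 116. These matches describe the sequence, and binding was not measured.

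The cycling cells held 3 to 55 cycle UMIs with a median of 8. Just inside the lower bound were 9 cells with 3 cycle UMIs, and just outside it 23 cells with 2. On the other side, 20 cells held 0 and 29 held 1. Of the 84 cycling cells, 56 held UMIs both of Rrm2 or Pcna and of the 6 mitotic genes, 8 held those of Rrm2 or Pcna without the others, and 20 held the mitotic ones alone. Top2a came to 626 CPM (counts scaled to 1000000 UMIs per group) in the cycling cells (169 UMIs in 47 cells), Cenpf to 600, Ube2c to 549, Mki67 to 504, Pcna to 478, Rrm2 to 385, Cdk1 to 259 and Ccnb1 to 256. All 8 were 0 in the cycle-low cells by construction. Cycle-low cells still held UMIs of longer lists of S phase (DNA synthesis) and G2/M (up to mitosis) genes, which overlap the rule. They held 2 to 30 and 12 to 54 such UMIs per cell, and the deeper cycling cells 9 to 156 and 43 to 436. The ranges of both groups thus overlapped on each list. Other cell-cycle genes, which the rule did not name but which the choice of cells moves with it, followed: of 106 measured, 79 were at least 1.5-fold higher in the cycling cells and 2 at least 1.5-fold lower, with a median log2 ratio of 1.21. Of all 1396 genes measured 35.5% were past this fold, 335 (24%) higher and 161 lower in the cycling cells.

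Depth differed between the groups. Cycling cells had a median of 2857 UMIs (1106 to 8864), and cycle-low cells one of 1728 (1072 to 3348), for sums of 269801 and 37447 UMIs. A deep cell reaches 3 cycle UMIs more readily than a shallow one, so the depth is part of what the rule selects. After each cell was thinned to 1000 UMIs the median number of detected genes was 789 in cycling and 784 in cycle-low cells. The E15.5 table falls into columns 1 to 3000 and 3001 to 5000, at which boundary the depth jumps from a median of 962.5 to 7331.5 UMIs over 100 columns. Cycling cells were split 47 and 37 over the 2 stretches and cycle-low cells 16 and 4. No barcode of the 104 cells occurred at another age.

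Both groups held radial transcripts, in part because the rule asked for them. Over the 11 radial precursor markers the sum was 15278 CPM in cycling cells (median 33 UMIs per cell) and 17999 CPM in cycle-low cells (median 19), against 1033 CPM in the other 2799 cortical cells. Within the 7 rule genes, a cell of the cycling group held a median of 10 UMIs and a cell of the cycle-low group 5, and 8 of the 20 cycle-low cells held only 3 or 4. Sox2 (a factor that maintains neural precursors) stood at 667 CPM in cycling and 694 in cycle-low cells, Hes5 (a Notch target) at 304 and 347, and Slc1a3 (the glutamate transporter GLAST) at 545 and 694. Hes1, another Notch target, was at 271 CPM (73 UMIs in 37 cells) in cycling cells and at 80.1 (3 UMIs in 3 cells) in cycle-low cells.

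Markers of other cell types were at or near 0 for some types and above the level of the other cortical cells for others. The 7 microglial markers were at 0 in both groups, and the 5 endothelial and 5 meningeal markers gave at most 4 UMIs in either. The 6 astrocyte markers summed to 300.2 CPM in cycling (28 cells) and 454 CPM in cycle-low cells (6 cells), against 162 in the other cortical cells, with Aqp4 and Gfap at 0 in both groups. The 8 excitatory neuron markers summed to 430 CPM in cycling and 534 CPM in cycle-low cells, against 11228 in the other cortical cells. The 6 intermediate progenitor markers summed to 411 CPM in cycling (0 to 29 UMIs per cell) and 988 CPM in cycle-low cells (0 to 9, in 7 cells), against 803 in the other cortical cells, with Eomes at 0 by the rule. Precursor markers of the ganglionic eminence summed to 319 CPM in cycling and 267 CPM in cycle-low cells, against 50.9 in the other cortical cells, and interneuron markers to 189 and 107 against 102 CPM. Oligodendrocyte precursor markers were 22 UMIs in 5 cycling cells (81.5 CPM) and 1 UMI in the cycle-low cells, against 2.90 CPM in the other cortical cells. Pericyte markers were 33.4 CPM (7 cells) and 160 CPM (2 cells) against 0.846 CPM, and the hemoglobin transcripts of red blood cells 534 and 908 against 652 CPM. Cells were then left out if they held 2 or more UMIs in sum of markers of other types. These were interneuron, ganglionic eminence, oligodendrocyte precursor, endothelial, microglial, meningeal and pericyte markers. This left 48 cycling and 16 cycle-low cells. Among these cells 196 of 635 genes outside the cell cycle were past 1.5-fold, 123 higher in cycling and 73 in cycle-low cells, and of 62 single ratios followed there none changed sign from a called direction.

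The share of radial precursors that were cycling lay at E15.5 between those of E13.5 and E17.5. Cycling cells were 92.3% of radial precursors at E11.5 (494 of 535, exact 95% interval 89.7 to 94.4%), 73.2% at E13.5 (93 of 127, 64.6 to 80.7%), 53.8% at E15.5 (84 of 156, 45.7 to 61.8%) and 22.2% at E17.5 (14 of 63, 12.7 to 34.5%). Cycle-low cells were 0.935% at E11.5 (5 cells, 0.304 to 2.17%), 12.6% at E13.5 (16 cells, 7.38 to 19.7%), 12.8% at E15.5 (20 cells, 8.01 to 19.1%) and 46.0% at E17.5 (29 cells, 33.4 to 59.1%). With 1 table per age these shares have no replicate check. The intervals of the cycle-low share overlapped at E13.5 and E15.5 and lay apart from those of E11.5 and E17.5.

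Depth sets the level of these shares. With every cell thinned to 1000 UMIs and the rule applied again, cycling cells were 62.8% at E11.5 (137 of 218), 39.4% at E13.5 (39 of 99), 29.9% at E15.5 (41 of 137) and 10.2% at E17.5 (6 of 59). The cycle-low share became 9.63%, 29.3%, 23.4% and 69.5% in the same order. The order of the ages in the cycling share was the same in both counts, while the intervals of E13.5 (29.7 to 49.7%) and E15.5 (22.4 to 38.3%) overlapped after thinning. The plot of shares by age shows both counts.

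**Figure D1:**
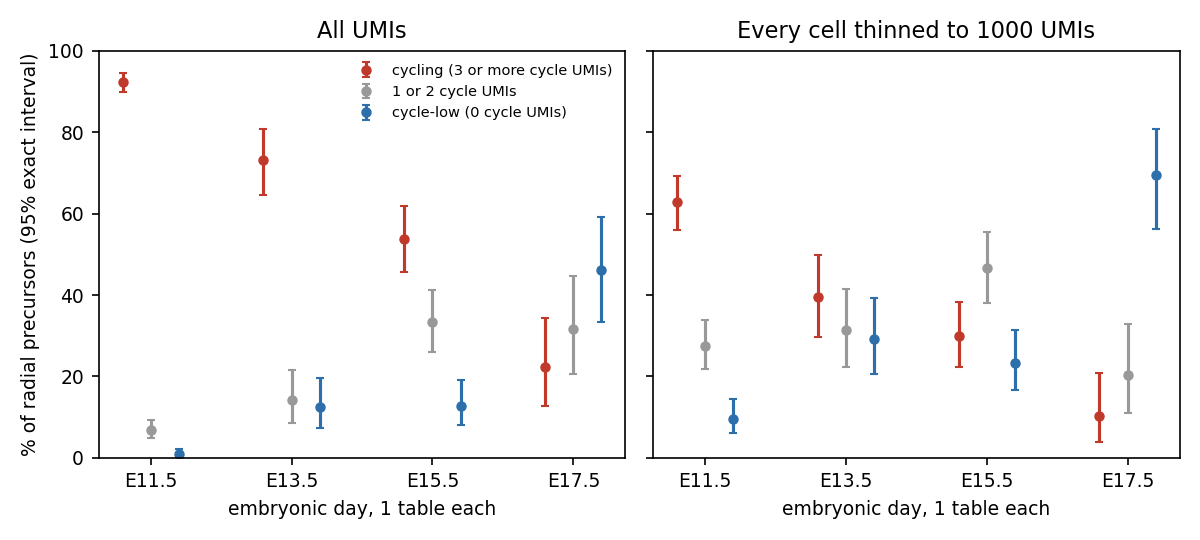
Share of radial precursors (percent) at each embryonic day that held 3 or more cycle UMIs (red), 1 or 2 (grey) or 0 (blue), over all UMIs (left) and after thinning every cell to 1000 UMIs (right). Points are the share in the 1 table of each age and bars the exact 95% interval; the red points run from 92.3% at E11.5 to 22.2% at E17.5 on the left and from 62.8% to 10.2% on the right.

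Outside the cell-cycle genes, the summed E15.5 cycle-low cells held more of Gadd45g and Hes6 and, through 2 of the 20 cells, more of Id3 and Hopx. They also held more of Apoe, with 30 of its 46 UMIs in 1 cell. The summed cycling cells held more of Nr2e1, Gas1, Nes and 11 of 19 chromatin modifiers. Genes with at least 50 UMIs over both groups were compared, and a gene was counted as past the fold at a ratio of 1.5 or more. Of 1282 such genes, 407 (31.7%) were past it, 248 (19.3%) higher in cycling and 159 (12.4%) higher in cycle-low cells. A gene with 50 UMIs over both groups would by depth have about 6.09 of them in the cycle-low cells, so that a ratio of 1.5 lies within counting error for the lower genes. CPM scales each group to its own total, and edgeR's TMM factors would move every log2 ratio up by 0.35, to 447 higher in cycling and 44 higher in cycle-low cells. The median log2 ratio of all 1282 genes was 0.04 in CPM and 0.39 with TMM, and each value that follows is in CPM. The genes named first are the 12 in each direction whose counting interval of the ratio stays farthest from 1.

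**Figure D2:**
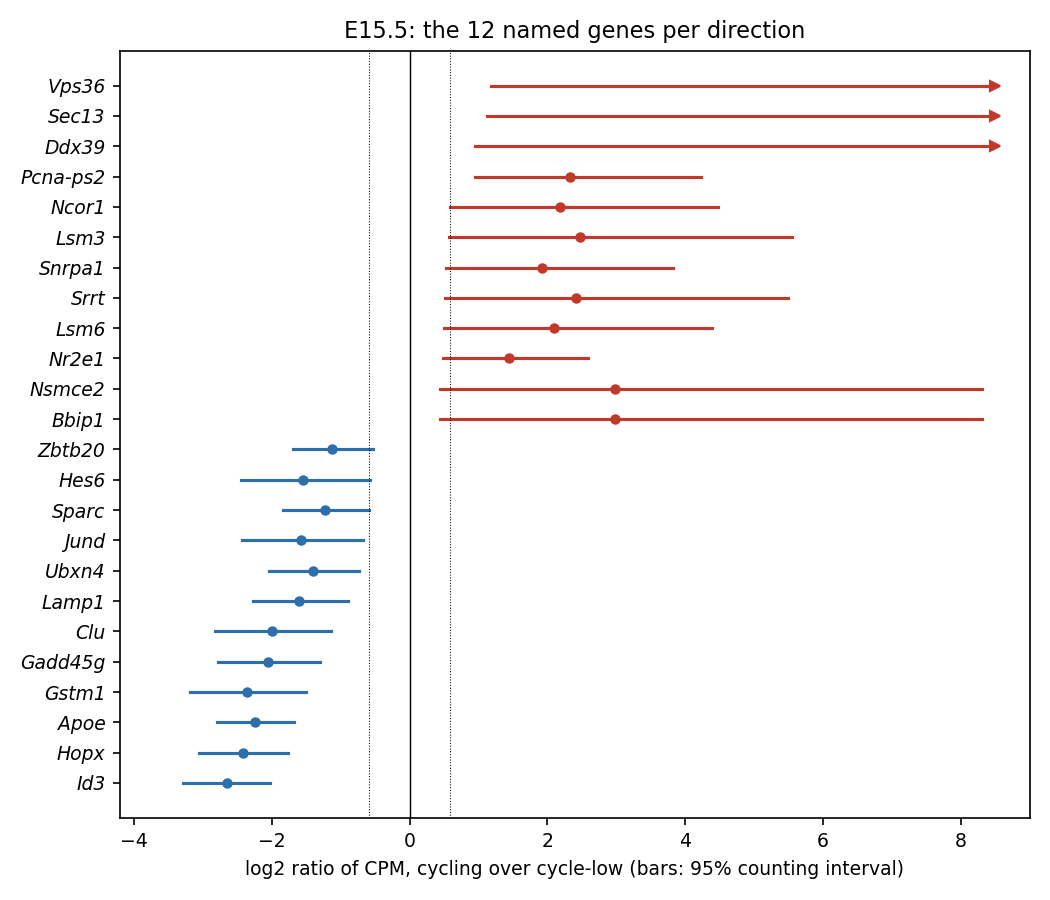
Log2 ratio of CPM, cycling over cycle-low, for the 12 named genes in each direction at E15.5, red for higher in cycling and blue for higher in cycle-low cells. Points are the ratio of the summed counts, bars the exact 95% counting interval, arrows mark genes at 0 UMIs in the cycle-low cells, and dotted lines 1.5-fold. The intervals of all 24 lie on 1 side of 0, as the naming rule makes them; Id3 is at -2.66 and Nr2e1 at 1.44.

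Id3, an inhibitor of basic helix-loop-helix factors that BMP signals induce, stood at 1122 CPM in cycle-low and 178 CPM in cycling cells, 6.30-fold lower in cycling (95% counting interval 4.07 to 9.74). Its 42 UMIs lay in 4 of the 20 cycle-low cells, with 25 and 14 in 2 of them, 2 and 1 in the others. Among cycling cells 12 of 84 held it, at most 19 UMIs in a cell. Without the 2 cycle-low cells that also hold Hopx, the log2 ratio of Id3 went from -2.66 to 0.92, and within the second stretch of columns it was 0.29, so its direction rests on those 2 cells.

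Hopx, a homeodomain protein known from outer radial glia and from quiescent stem cells, stood at 988 CPM in cycle-low and 185 CPM in cycling cells. All 37 of its UMIs in cycle-low cells were in the same 2 cells, 17 and 20, and the other 18 held none. In cycling cells it was spread thinly, with 50 UMIs in 25 cells and at most 6 in a cell. With each cell thinned to 1000 UMIs, Hopx was in 13 of 84 cycling and 2 of 20 cycle-low cells, against 25 and 2 over all UMIs, while the 2 highest cells were cycle-low.

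Those 2 cells shared further transcripts. Beside Id3 and Hopx they held 6 and 8 UMIs of Rspo2 (a secreted enhancer of Wnt signals), 55 and 61 of Fabp7 (the brain lipid-binding protein of radial glia), 9 and 3 of Clu (a secreted chaperone), 11 and 3 of Sparc (a matrix protein of glia) and 7 and 34 of Ptn (pleiotrophin). Rspo3 was at 13 UMIs in the first and 0 in the second, and Apoe at 2 and 30. Among the other 18 cycle-low cells none held Rspo2 or Rspo3, but 4 cycling cells held Rspo2 (10 UMIs) and 6 held Rspo3 (24 UMIs). One cycling cell held 5 UMIs of Id3, 3 of Hopx, 4 of Apoe, 4 of Rspo2 and 7 of Rspo3, and another 7, 6, 14, 2 and 5 in the same order, so the combination was not confined to cycle-low cells. These genes were picked after the cells' values were seen and describe 2 cells of 1 table.

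Apoe, the lipid carrier made by astroglia, stood at 1228 CPM in cycle-low and 259 CPM in cycling cells, 4.73-fold lower in cycling (3.19 to 6.97). One of the 2 cells above held 30 of the 46 UMIs, and the other 6 cycle-low cells with Apoe held 1 to 6. In cycling cells 27 held it, at most 14 UMIs. Without the 2 cells with Hopx its log2 ratio went from -2.24 to -0.76. That value rests on few cycle-low UMIs and has no counting interval. Clu (534 against 133 CPM) had a log2 ratio of -0.91 without them and that of Sparc (801 against 341 CPM) went from -1.23 to -0.56.

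Gstm1, a glutathione transferase, stood at 587 CPM in cycle-low cells and was 5.11-fold lower in cycling cells (2.82 to 9.12), with 16 of 22 UMIs in 1 cycle-low cell. That cell held 9 UMIs of Epcam, 7 of Gstm2, 7 of Ugt2a1, 6 of Cyp2g1 and 5 of Krt18, transcripts that were at 0 in every other radial precursor, and 1 UMI of Fabp7. Ugt2a1 and Cyp2g1 are known from the olfactory epithelium. Without this cell the log2 ratio of Gstm1 went from -2.35 to -0.55.

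Gadd45g and Hes6 marked other cycle-low cells. Gadd45g, a growth-arrest gene switched on as precursors commit to becoming neurons, stood at 694 CPM in cycle-low and 167 CPM in cycling cells, 4.16-fold lower in cycling (2.47 to 6.89). Its 26 UMIs were in 6 cycle-low cells, with 8, 5, 5 and 6 in 4 of them and 1 in the remaining 2. Hes6, which counters Hes1 during neurogenesis, stood at 401 against 137 CPM and was held by 9 cycle-low cells, among them those 4, with 3, 2, 3 and 1 UMIs. Each of the 4 held 1 UMI of Fabp7 and a radial sum of 3 to 5, near the lower bound of the rule, and none held Id3, Hopx or Apoe. In cycling cells Gadd45g was in 14 cells, 1 of which held 22 of 45 UMIs. Neurog2, a proneural factor, had too few UMIs to be counted, with 8 in 4 cycle-low cells (214 CPM) and 34 in 19 cycling cells (126 CPM). With a radial sum of at least 5 required of every cell, the log2 ratio of Gadd45g went from -2.06 to -0.82.

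The cycle-low cells were thus not uniform in the transcripts named here. Fabp7 ran from 1 to 100 UMIs among them, with a median of 6.5, and from 0 to 246 among cycling cells, with a median of 13. The summed level of Fabp7 was 11429 CPM in cycle-low and 8551 CPM in cycling cells, within 1.5-fold. Mt3, a metallothionein of astroglia, was at 1389 against 726 CPM, with up to 17 UMIs in a cycle-low and 34 in a cycling cell. The plot of UMIs per cell shows the high Id3, Hopx and Apoe values as 1 or 2 cells above a group that is mostly at 0.

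**Figure D3:**
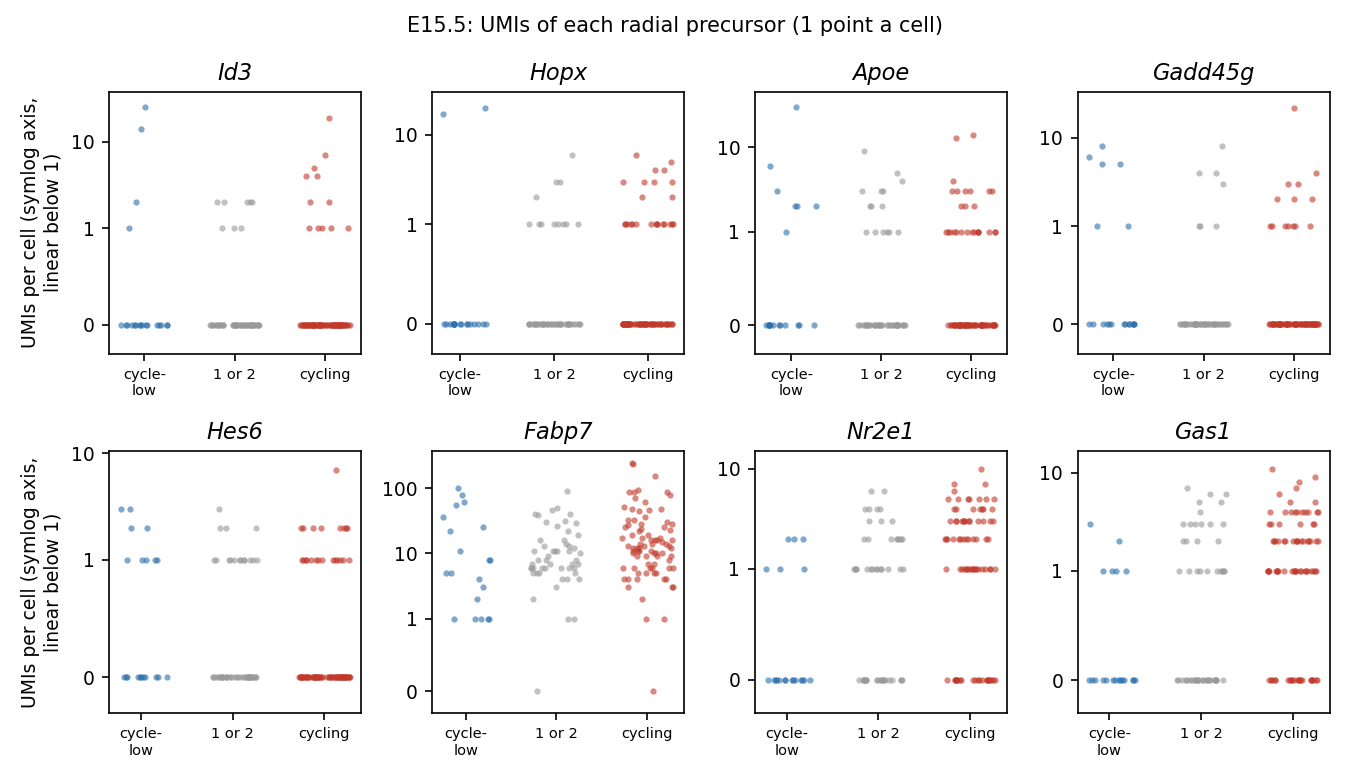
UMIs of 8 genes in each of the 156 radial precursors at E15.5 (1 point a cell, symlog axis that is linear below 1, points spread sideways at random), for 20 cycle-low cells (blue), 52 with 1 or 2 cycle UMIs (grey) and 84 cycling cells (red). Id3 and Hopx reach 25 and 20 UMIs in cycle-low cells that are mostly at 0, while Nr2e1 and Gas1 are held by 62 and 63 of the cycling and by 6 of the cycle-low cells. These counts are over all UMIs, and the cycling cells were deeper.

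The other genes higher in cycle-low cells were spread over more cells. Lamp1, a lysosomal membrane protein, stood at 721 against 237 CPM in 11 cycle-low and 38 cycling cells. Ubxn4, which acts in degradation of proteins from the endoplasmic reticulum, stood at 774 against 293 CPM (13 and 45 cells). Jund, a subunit of the AP-1 factor, was at 454 against 152 CPM (9 and 32 cells), and Zbtb20, a zinc-finger factor of late cortical precursors and astrocytes, at 908 against 415 CPM (14 and 52 cells). No cycle-low cell held more than 8 UMIs of any of these 4.

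Nr2e1 (Tlx), a nuclear receptor that keeps neural stem cells dividing, was among the genes higher in cycling cells. It stood at 652 CPM in cycling cells (176 UMIs in 62 of 84 cells, median 2) and at 240 CPM in cycle-low cells (9 UMIs in 6 of 20 cells, at most 2), a ratio of 2.71 (1.40 to 6.03). In the other cortical cells, with a median depth of 2594 UMIs, it was at 40.4 CPM. Gas1, a membrane co-receptor for Hedgehog signals, stood at 615 against 240 CPM (63 and 6 cells), a ratio of 2.56 (1.32 to 5.70). With each cell thinned to 1000 UMIs, Gas1 was in 34 of 84 cycling and 6 of 20 cycle-low cells. Nes, the intermediate filament nestin, stood at 652 against 294 CPM, and Rgcc, a regulator of the cell cycle, at 486 against 187 CPM. Ccnd1, cyclin D1 of the G1 phase, was at 204 CPM (55 UMIs) against 53.4 CPM (2 UMIs), and Ccnd2 at 915 against 694 CPM, within 1.5-fold. When cells were grouped after thinning to 1000 UMIs, Gas1 reversed, with a log2 ratio of -0.12 in place of 1.36, and Nes did so when cells with 1 cycle UMI joined the cycle-low group (-0.14 in place of 1.15).

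Radial precursors with 1 or 2 cycle UMIs stood nearer to cycling cells in most of these genes. Their level was 574 CPM for Nr2e1, 591 for Gas1 and 848 for Nes, and it was 111 CPM for Id3, 189 for Hopx, 334 for Apoe and 189 for Gadd45g. Each of these values is closer to that of the cycling than to that of the cycle-low cells. Most of these genes were named for their gap between those groups. The cycle-low values of Id3, Hopx and Apoe also lie mainly in 1 or 2 cells. A group outside the naming would tend to lie nearer the cycling cells, so this does not show which cells they resemble.

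Of the 12 genes higher in cycling cells, Snrpa1 and Ddx39 are in the list of RNA splicing and nuclear RNA-binding genes. Snrpa1, a protein of the U2 small nuclear ribonucleoprotein, stood at 404 CPM (109 UMIs) in cycling and 107 CPM (4 UMIs) in cycle-low cells, a ratio of 3.78 (1.44 to 14.1). Lsm3 and Lsm6, of the ring that binds U6 RNA, were at 297 against 53.4 CPM and 341 against 80.1 CPM, and Srrt, which links the RNA cap to processing, at 285 against 53.4 CPM. Ddx39, an RNA helicase of messenger export, Sec13, a coat protein also found in the nuclear pore, and Vps36, of the ESCRT-II complex, were at 0 UMIs in the cycle-low cells. Against the 3 UMIs that a count of 0 allows over the group (80.1 CPM) they were at least 2.45-fold, 2.78-fold and 2.87-fold higher in cycling cells. The lower limits of the 95% counting interval, which also covers the counting error in the cycling cells, were 1.93, 2.19 and 2.26. Sec13 reversed when cells were grouped after thinning to 1000 UMIs (log2 ratio -0.036).

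The remaining genes of that 12 rest on few cycle-low UMIs. Ncor1, a transcriptional corepressor, stood at 363 against 80.1 CPM (3 UMIs), and Bbip1, a subunit of the ciliary BBSome, and Nsmce2, a SUMO ligase of the SMC5/6 complex, each at 211 against 26.7 CPM (1 UMI, ratio 7.91, 1.36 to 318). Pcna-ps2, at 537 against 107 CPM, is a pseudogene copy of Pcna; reads of Pcna itself may have been counted on it, and its value is uncertain.

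Lists of genes by function gave the following counts, beside 19.3% and 12.4% past the fold in all genes outside the cell cycle. Of 19 measured chromatin modifiers, 11 were higher in cycling cells, 1 lower and 7 within 1.5-fold, with a median log2 ratio of 0.71 against 0.04 over all genes. Among them Hdac1, a histone deacetylase, stood at 471 against 187 CPM, Rbbp7, a histone chaperone, at 397 against 160 CPM, and Baz1b, a chromatin remodeller, at 330 against 134 CPM. Rbbp7 reversed when cells were grouped after thinning to 1000 UMIs (log2 ratio -0.15). Smarcb1, of the BAF remodeller, was the 1 lower, at 252 against 427 CPM. Of 50 RNA splicing and nuclear RNA-binding genes, 13 were higher, 1 lower and 36 within, with a median of 0.22; Hnrnpa2b1 stood at 3391 against 2056 CPM.

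Of 12 measured genes of astroglia and adult neural stem cells, 5 were higher in cycle-low cells (Apoe, Clu, Cpe, Mt3 and Sparc), 1 was higher in cycling cells (Sox21) and the median log2 ratio was -0.42. Of 28 radial precursor genes outside the rule, 5 were higher in cycling and 6 in cycle-low cells, with a median of -0.17 that TMM factors turn to 0.18; the 6 included Aldoc, an enzyme of glycolysis in astroglia, at 1362 against 875 CPM. Of 5 neurogenic commitment genes, 2 were higher in cycle-low cells (Gadd45g and Hes6), and of 7 immediate early and stress genes 3 were (Fos, Hsph1 and Jund) and 1 lower. Fos stood at 721 against 330 CPM and reversed in the second stretch of columns (log2 ratio 0.083). Of 46 cytosolic ribosomal proteins 42 were within 1.5-fold, as were all 7 glycolysis genes and all 8 mitochondrially encoded genes. Of 66 oxidative phosphorylation genes 9 were higher in cycling and 8 in cycle-low cells. TMM factors turn these counts to 28 and 1, beside 447 and 44 of all 1282 genes outside the cell cycle. Of 12 neuronal transcripts 2 were higher in cycling and none in cycle-low cells. In cholesterol and fatty acid metabolism Acat2, Cyp51 and Sc4mol were higher in cycling cells, and Scd2, a desaturase, was higher in cycle-low cells at 1309 against 719 CPM. Scd2 reversed when cells were grouped after thinning to 1000 UMIs (log2 ratio 0.093).

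The same rule was then applied at E11.5, E13.5 and E17.5, where 494, 93 and 14 cells were cycling and 5, 16 and 29 cycle-low. UMIs were summed per age and group, and cycling was compared with cycle-low within age by edgeR's quasi-likelihood test with Benjamini-Hochberg adjustment over 1544 genes. Each age is 1 library, so that 3 pairs stand behind each p-value. The spread was pooled over genes by edgeR, and a gene's own spread over the 3 pairs entered little. The summed cycle-low depth ran from 9189 UMIs at E11.5 to 51916 at E17.5. Of 1459 genes outside the cell cycle, 18 (1.23%) passed an adjusted p of 0.05, 7 (0.480%) higher and 11 (0.754%) lower in cycling cells. At an unadjusted p under 0.05 there were 93. Over all 1544 genes 3.56% passed, 44 (2.85%) higher and 11 (0.712%) lower, and 37 of the 44 were cell-cycle genes. Of the 11, Slc1a3 and Ttyh1 are genes of the radial rule, which cells were chosen by, and their change is not read as a result. Without E17.5 no gene passed (43 at an unadjusted p under 0.05), without E13.5 1 did, and without E11.5 13 did.

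Called lower in cycling than in cycle-low cells over these ages were Gadd45g, Neurog2, Sparc, Cd63 and, from its E17.5 level, Apoe. Gadd45g was at 106 CPM in cycling and 567 CPM in cycle-low cells at E13.5, at 101 and 693 CPM at E17.5, and at 50.5 CPM and 0 of 9189 UMIs at E11.5. Cycling cells were lower at E13.5 and E17.5, with too few UMIs at E11.5 to tell, and over the 3 ages the log2 difference was -2.25 (SE 0.49, edgeR adjusted p = 0.00028). Of 49 UMIs of intermediate progenitor markers in the E17.5 cycle-low cells, 36 were of Gadd45g and 26 lay in 1 cell. How Gadd45g itself was spread over these cells was not counted. Neurog2 was at 103 against 653 CPM at E11.5, 125 against 925 at E13.5 and 60.4 against 57.8 at E17.5. Its log2 difference was -2.46 (SE 0.50, edgeR adjusted p = 7.59e-05). It was lower in cycling cells at the first 2 of these ages and level at the third, and its 6 cycle-low UMIs at E11.5 were in 1 of the 5 cells. With a radial sum of at least 5 required, Gadd45g passed (edgeR adjusted p = 0.00133) and Neurog2 did not (0.135). By DESeq2's Wald test Gadd45g did not pass (adjusted p = 0.0805). Nor did it without the replicate block (edgeR adjusted p = 0.0957), among cells of 2000 to 5000 UMIs (0.125) or without E17.5 (0.657). With E15.5 added and cells limited to 2000 to 5000 UMIs, the log2 difference of Neurog2 was -0.39 (edgeR adjusted p = 0.956).

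Apoe was highest at E17.5 in both groups. Its levels were 33.4 CPM in cycling and 0 in cycle-low cells at E11.5, 54.6 and 29.8 CPM at E13.5 and 1249 and 3409 CPM at E17.5 (log2 difference -1.20, SE 0.37, edgeR adjusted p = 0.0361). The cycle-low level was above the cycling one at E17.5 alone, and Apoe missed the threshold in 9 of 13 other settings tried, with adjusted p from 0.0501 without cells rich in collagen transcripts to 1 by DESeq2's Wald test. The 29 cycle-low cells of E17.5 also held 19 UMIs of microglial markers, in 2 cells, against 0 in the cycling cells. Whether the Apoe of E17.5 lay in those 2 cells was not tested. Cd63, a tetraspanin of endosomes, was lower in cycling cells at each age. It stood at 98.0 against 653 CPM, 129 against 447 CPM and 181 against 501 CPM (log2 difference -1.91, SE 0.44, edgeR adjusted p = 0.000852). With a radial sum of at least 5 required, Cd63 had a log2 difference of -1.32 and did not pass (edgeR adjusted p = 0.353). At E15.5 Cd63 was at 278 against 347 CPM, within 1.5-fold.

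Col1a2 and in part Gja1 and Sparc rest on single cells, which was not shown for Cdkn1c. Col1a2, the collagen of fibroblasts, was called at a log2 difference of -6.19 (SE 1.24, edgeR adjusted p = 5.18e-05), with 2, 15 and 17 UMIs in the cycle-low cells of E11.5, E13.5 and E17.5 and 14, 0 and 0 in the cycling ones. After removal of cells with 5 or more UMIs of 5 meningeal genes (1 cycling cell at E11.5 and 1 cycle-low cell each at E13.5 and E17.5) it had too few UMIs to be tested, as did Cdkn1c, a cell-cycle inhibitor (-4.26, SE 0.74, edgeR adjusted p = 1.10e-06 with all cells). Sparc then went from -1.26 (edgeR adjusted p = 0.0131) to -0.26 (0.947), and 9 genes in all were called in place of 18. With all cells, Cdkn1c was at 74.3 CPM in cycling and 435 CPM in cycle-low cells at E11.5. It was at 12.9 against 865 CPM at E13.5 and 0 against 193 CPM at E17.5. Its 10 cycle-low UMIs at E17.5 were at the minimum for the test. That it dropped out therefore does not show that it lay in the collagen-rich cells. At E15.5 no cycle-low cell held a UMI of Col1a2 or of Cdkn1c.

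Also lower in cycling cells were Gja1, the astroglial gap-junction protein connexin 43 (log2 difference -2.39, SE 0.75, edgeR adjusted p = 0.0399), and Igfbp2, a binding protein of insulin-like growth factors (-1.06, SE 0.32, edgeR adjusted p = 0.0243). Gja1 was at 103 against 109 CPM at E11.5, 51.4 against 388 CPM at E13.5 and 0 against 212 CPM at E17.5. Without the collagen-rich cells its cycle-low UMIs went from 13 to 1 at E13.5 and from 11 to 7 at E17.5, too few to be tested, and it missed the threshold in 6 of the 9 other settings that could test it. Igfbp2 missed the threshold in 11 of 14 other settings tried.

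Higher in cycling cells were Srsf3, Snrpa1, Hirip3, Hmgn5, Mrpl18 and Pcna-ps2, the last a copy of the rule gene Pcna and not read as a result. Srsf3, a splicing factor, was at 991 against 435 CPM at E11.5, 967 against 388 CPM at E13.5 and 906 against 250 CPM at E17.5 (log2 difference 1.51, SE 0.33, edgeR adjusted p = 0.000318). Its cycling values lay above its cycle-low values at all 3 ages. Srsf3 did not pass by DESeq2's Wald test (adjusted p = 0.0833) or among cells of 2000 to 5000 UMIs (edgeR adjusted p = 0.0693). It also missed without E13.5 (edgeR adjusted p = 0.167) and without E17.5 (0.657). At E15.5 Srsf3 was within 1.5-fold, and its log2 ratio ran from 0.12 to 0.70 over 16 alternative settings. Snrpa1 was at 539 against 326 CPM, 289 against 149 CPM and 403 against 57.8 CPM (log2 difference 1.54, SE 0.47, edgeR adjusted p = 0.0347). Its cycle-low levels rest on few UMIs. It passed with a radial sum of at least 5 (edgeR adjusted p = 0.0402). It did not pass among cells of 2000 to 5000 UMIs (0.424), without collagen-rich cells (0.0924) or by DESeq2's Wald test (adjusted p = 0.681). Hirip3, a partner of the histone chaperone HIRA, had a log2 difference of 2.35 (SE 0.56, edgeR adjusted p = 0.00144), and at E15.5 it stood at 356 against 134 CPM. Hmgn5, a nucleosome-binding protein, and Mrpl18, a mitochondrial ribosomal protein, both had one of 1.89 (edgeR adjusted p = 0.019 and 0.00972). At E15.5 Hmgn5 was at 241 against 320 CPM and Mrpl18 at 311 against 267 CPM, within 1.5-fold. Hirip3, Hmgn5 and Mrpl18 did not pass by DESeq2's Wald test (adjusted p = 0.221, 0.54 and 0.457). Nor did they among cells of 2000 to 5000 UMIs (edgeR adjusted p = 0.362, 0.125 and 0.297). Of 49 splicing genes tested, Srsf3 and Snrpa1 were the 2 called, beside 0.480% of all genes outside the cell cycle called higher, with a median log2 difference of 0.37 against -0.01 over all genes outside the cell cycle. None of 17 chromatin modifiers was called (median 0.31).

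Of the 24 genes named at E15.5, 21 could be tested at the other ages. Among 10 higher in cycling cells at E15.5, 9 had the same sign and 2 were called (Snrpa1 and Pcna-ps2), beside 0.480% called higher over all genes outside the cell cycle. Reads of Pcna, a gene of the rule, may have been counted on Pcna-ps2, and its call is not read as a result. Among 11 higher in cycle-low cells, 9 had the same sign, Id3 (-0.03) and Clu (-0.05) by little, and 3 were called (Gadd45g, Sparc and Apoe), beside 0.754% called lower. None was called in the opposite direction. The share of genes with the same sign over all genes is not given here, so the sign counts have no background. Sparc did not pass without collagen-rich cells (edgeR adjusted p = 0.947), and Apoe missed the threshold in 9 of 13 other settings. Hopx had the opposite sign (log2 difference 1.31, SE 0.79, edgeR adjusted p = 0.648), with 504 CPM in cycling and 173 CPM in cycle-low cells at E17.5. Id3 was near 0 (-0.03, SE 0.49, edgeR adjusted p = 0.998), at 886 and 751 CPM at E17.5. Nr2e1 had 0.33 (SE 0.35, edgeR adjusted p = 0.867), Gas1 0.42 (SE 0.35, 0.805) and Nes 0.12 (SE 0.32, 0.973). The higher Id3 and Hopx of E15.5 cycle-low cells, which lay in 2 cells, had no counterpart among the calls at the other ages. Lamp1 (-1.08, edgeR adjusted p = 0.0506), Srrt (1.40, 0.0633) and Lsm3 (1.14, 0.355) had the sign of E15.5 and did not pass. The plot of both comparisons shows these genes side by side.

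**Figure D4:**
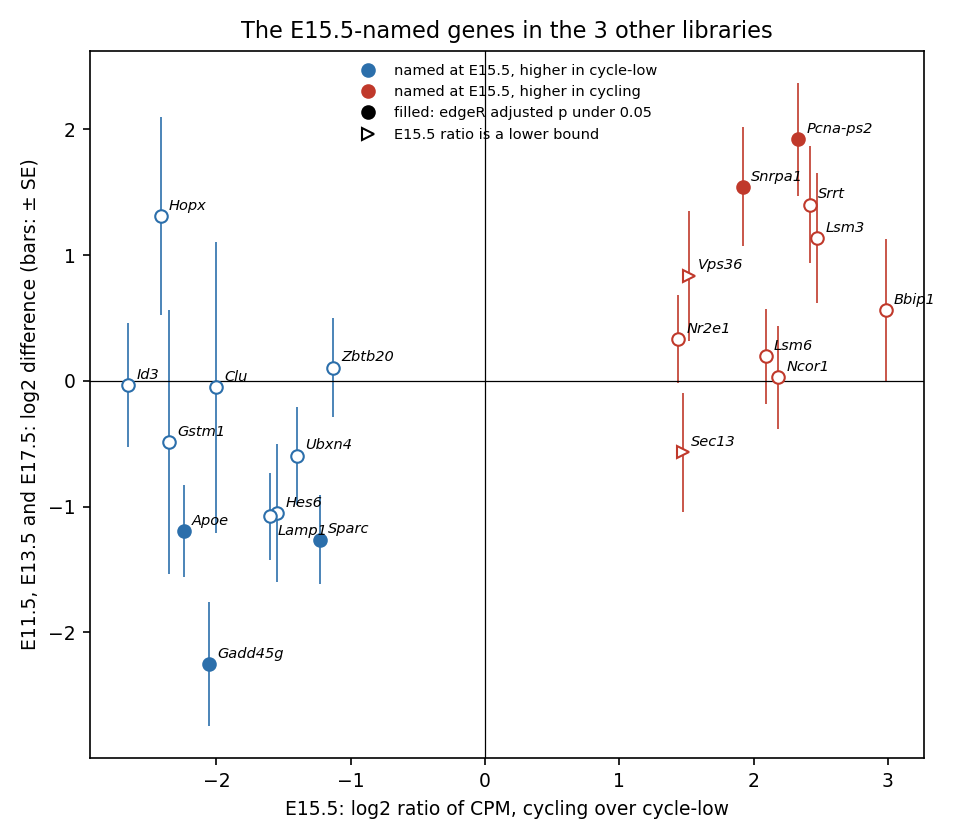
E15.5 log2 ratio of CPM, cycling over cycle-low (horizontal), against the log2 difference over E11.5, E13.5 and E17.5 (vertical, bars ± SE from edgeR) for the 21 named genes that could be tested. Filled symbols passed an adjusted p of 0.05, and triangles are lower bounds at E15.5. Gadd45g, Apoe and Sparc are filled at the lower left, Snrpa1 and Pcna-ps2 at the upper right, and Hopx lies at the upper left, at 1.31. Pcna-ps2 is a copy of Pcna, a gene of the rule.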

How the data were processed

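Drop-seq count tables of cortical cells from 4 embryonic ages were used. The values are raw UMI counts per gene and cell as deposited by the authors, with no normalization. Per the submitters' processing notes reads were placed on mm10; aligner, annotation and cell filters are not stated in the sources used here. The E15.5 table has no batch names and was 1 library. The members, gene lists and rules were chosen with earlier results of these data known.

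Counts were summed per age and group. At E15.5 levels are CPM, counts scaled to 1000000, with exact Poisson intervals, and ratios have exact conditional binomial 95% intervals (scipy 1.17.1); Clopper-Pearson intervals were used for shares. These cover counting error only. The p-values at the other ages rest on a spread that edgeR pooled over genes, so a gene's own spread over the pairs entered little. The other ages were tested with edgeR 4.0.16 (R 4.3.3; quasi-likelihood F test, TMM, age as block, genes reaching 10 UMIs in 3 or more of 6 sums, Benjamini-Hochberg). Standard errors are the log2 difference divided by the root of F. On counts simulated for the 3 other libraries with 1310 genes, 39.6% of 2-fold and 86.8% of 4-fold changes were recovered, and 5 of 1123 unchanged genes were called. The simulation drew every gene at the spread pooled over genes. Its rates therefore do not cover genes whose UMIs lie in single cells. DESeq2 1.42.0 was an alternative.

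Genes were named by rule: 12 per direction at E15.5 (at least 50 CPM, by the interval bound nearest 1), up to 4 per list of 34 lists, and 6 per direction from the test, leaving out cell-cycle, predicted, hemoglobin, mitochondrially encoded and sex-linked genes. Genes printed beside single cells were chosen after their values were seen. Thinning drew UMIs without replacement with a fixed seed. Doublets were not called and were kept.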

Additional observations from a re-analysis of the deposited data

How the results depend on the processing

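The direction of 66 E15.5 ratios was followed through other scalings, cell rules and parts of the table, 3 of them (Ddx39, Sec13 and Vps36, at 0 UMIs in cycle-low cells) only where a setting gave the cycle-low cells a UMI. Of the ratios past 1.5-fold, Id3 reversed in the second stretch of columns (log2 ratio 0.29) and without the 2 cells with Hopx (0.92). Fos reversed in the second stretch (0.083). After thinning to 1000 UMIs, Sec13 (-0.036), Gas1 (-0.12), Rbbp7 (-0.15), Scd2 (0.093) and H19 (-0.36) did. H19 also reversed among cells of 2000 to 5000 UMIs (-0.56), and Nes (-0.14) and Ndufb3 (-0.41) with cycle-low cells of 0 or 1 cycle UMIs. Ratios within 1.5-fold were not counted as reversed, and some of them changed sign between settings. Among these were Ccnd2 (-0.17 to 0.86), Cd63 (-1.15 to 0.28) and Hmgn5 (-0.65 to 0.92). The 407 genes past 1.5-fold of 1282 became 21 of 150 on thinned counts, 154 of 598 in the first and 225 of 464 in the second stretch, 196 of 635 without cells of other types, 1615 of 3432 at 20 UMIs, 114 of 526 at 100 UMIs and 152 past 2-fold. TMM factors gave 491, of which 91.0% were higher in cycling cells against 60.9% in CPM. The cycling share of 53.8% became 29.9% after thinning, and the cycle-low share of 12.8% became 23.4%, with 7.14% among cells of 2000 to 5000 UMIs and 5.97% in the second stretch.

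In the test over the other ages cycling and cycle-low sums are paired because they come from the same library. Without the replicate block 2 genes in place of 18 were called. DESeq2's Wald test called 4, cells of 2000 to 5000 UMIs 2, a cycle sum of at least 5 gave 8, the removal of collagen-rich cells 9, and a radial sum of at least 5 also 9. With E15.5 added as another pair 33 were called. Leaving out 1 library gave 0 to 13 calls. No gene outside the cell cycle was called higher in cycling cells by the Wald test, without the block, without E13.5 or without E17.5. DESeq2 size factors (20), no filter (20) and cells of 500 UMIs (17) stayed within 1.5 times. The alternatives on cells with Hopx, Gstm1 or collagen, the radial sum of 5 and E15.5 matched for depth were chosen after seeing the data. The 37447 cycle-low UMIs of E15.5 and 9189 of E11.5 limit what can be seen in low genes.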

Other observations

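Cells that met the same rule were also present among the cells the authors left out of the cortical tables. At E15.5 there were 89 such cells, 60 of them cycling and 19 cycle-low, beside the 84 and 20 within the cortical table. At E11.5 there were 61 (37 cycling, 12 cycle-low), at E13.5 36 (21 and 11) and at E17.5 32 (18 and 11). They entered no comparison.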
